A study of Mus musculus with 3 samples.

Results

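TRBV13-2 is the mouse TCR beta variable gene known from serology as Vβ8.2, and its rearrangements were followed through the CD4, CD8 and double-negative (DN) T cells of 1 animal. The members were chosen by their gene calls alone, as every clonotype whose best V gene was TRBV13-2 and whose best J gene was a TRBJ gene. A clonotype here is 1 distinct nucleotide sequence of the CDR3, the loop that the V, D and J segments form where they join. There were 5652 such clonotypes of 44891 in the CD4 library, 8312 of 81313 in the CD8 library and 5250 of 42026 in the DN library, or 19214 of 168230 in all. The animal was an MRL.lpr mouse, a lupus-prone strain carrying the lpr mutation of Fas, aged 16 weeks. CD4, CD8 and DN T cells were sorted from its spleen by flow cytometry, and the mRNA of an equal number of cells of each subset gave 1 TCR library per subset. There was therefore no replicate of any subset and no animal of a non-autoimmune strain. The tests below compare the rearrangements in these 3 libraries, not the subsets. The libraries hold TCR transcripts only, so the subset labels could not be checked against CD4 or CD8 transcripts.

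The beta chain is assembled in the thymus by joining a D segment to a J segment and then a V segment to the DJ product. Enzymes trim the segment ends and add untemplated bases at both junctions, so that the middle of the CDR3, which mostly contacts the antigenic peptide, differs between clones while its ends keep the residues of V and J. The mouse locus holds 2 D genes, each followed by its own cluster of J genes, and in the RefSeq gene list of GRCm38.p6 the order on chromosome 6 is Trbd1, the Trbj1 genes, Trbd2 and the Trbj2 genes. Trbv13-2 lies between Trbv12-2 and Trbv12-3 in that list, with the synonym Tcrb-V8.2, and its sister genes Trbv13-1 (V8.3) and Trbv13-3 (V8.1) lie beyond these neighbours on either side. Vβ8 chains are best known as partners of the invariant alpha chain of NKT cells and as chains of receptors to myelin basic protein in mice. DN T cells carry an alpha beta receptor without CD4 or CD8, and they accumulate in lpr mice and in lupus.

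The CDR3s carried the mark of the gene. Over all productive members the commonest base at each position, as far as it was held by at least 50% of the sequences, spelled TGTGCCAGCGGTGA, which encodes Cys-Ala-Ser-Gly and the start of the next codon. In 94.2%, 95.8% and 94.6% of the productive members of the CD4, CD8 and DN libraries the CDR3 began with CASG, whereas 0.481%, 0.578% and 0.481% of the productive clonotypes of other TRBV genes did. The sister genes were distinct here, with 84.0%, 83.9% and 85.1% of their productive CDR3s beginning CASS. The following clonotypes, the largest of the gene in each library together with others that recur below, are shown because the comparisons of clone size and sharing turn on them. Their ranks are within the gene. Capitals mark the bases between the stretch that matched the TRBV13-2 consensus and the stretch that matched the consensus of the J gene in these libraries.
largest in CD4, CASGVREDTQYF, TRBJ2-5: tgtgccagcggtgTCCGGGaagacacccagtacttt
rank 2 in CD4, TRBJ2-1: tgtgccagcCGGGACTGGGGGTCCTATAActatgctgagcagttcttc
rank 3 in CD4, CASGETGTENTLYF, TRBJ2-4: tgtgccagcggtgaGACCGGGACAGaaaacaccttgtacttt
largest in CD8, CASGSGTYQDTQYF, TRBJ2-5: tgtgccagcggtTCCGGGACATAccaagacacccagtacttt
largest in DN, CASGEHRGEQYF, TRBJ2-7: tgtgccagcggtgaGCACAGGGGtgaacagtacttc
rank 2 in DN, TRBJ2-7: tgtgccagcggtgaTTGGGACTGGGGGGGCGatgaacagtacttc
rank 3 in DN, TRBJ2-5: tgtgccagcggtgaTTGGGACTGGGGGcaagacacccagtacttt
rank 4 in DN, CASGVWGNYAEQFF, TRBJ2-1: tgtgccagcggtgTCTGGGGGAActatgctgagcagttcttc
In the largest CD4 clonotype 6 bases lay between the V and J stretches, and in the second 20. Both the second and the third TRBV13-2 clonotype of DN carried the letters GACTGGGG of the TRBD2 gene, which return below.

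TRBV13-2 was the V gene with the most reads in the CD4 library, the fourth by reads in DN and the fifth in CD8. In CD4 it held 19560 of 133667 TCR beta reads (14.6%, 95% Wilson interval 14.4 to 14.8%), while its part was 14801 of 150874 for CD8 (9.81%, 9.66 to 9.96%) and 22674 of 194290 for DN (11.7%, 11.5 to 11.8%). These shares describe the calls that chose the members and were not tested, and their intervals, like all those below, cover counting error only, since no molecular identifiers were named and reads are then not independent molecules. Each clonotype counted once, the share of the gene was 12.6% for CD4, 10.2% for CD8 and 12.5% for DN. By reads CD4 stood at 1.49 times CD8 and DN at 1.19 times CD8, and DN stood at 0.798 of CD4. By clonotypes the ratios were 1.23, 1.22 and 0.992, so that CD4 led DN by reads but not by the number of clonotypes. When the 10 largest clonotypes per library were left out, the read ratio of DN to CD4 moved to 0.958 (0.941 to 0.976).

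The sister genes were distributed otherwise. TRBV13-1 held 13.4%, 12.6% and 20.4% of the reads of CD4, CD8 and DN, and TRBV13-3 held 5.81%, 14.9% and 11.7%. TRBV13-2 was thus the only gene of the Vβ8 group with its highest read share in CD4. Among 15 other V genes, the pattern of read shares over the 3 libraries was nearest in TRBV30, a rare gene with 0.648%, 0.465% and 0.510% (distance 0.0892 on the scale of log2 share over the mean of the 3 libraries), then in TRBV5 with 10.1%, 5.05% and 6.88% (0.306) and in TRBV3 with 0.612%, 0.634% and 0.430% (0.601). Each distance rests on 3 libraries. In J use the nearest genes were TRBV2, TRBV31 and TRBV13-3, where on average 5.37%, 5.48% and 6.39% of the clonotypes would have to change their J gene to give the profile of TRBV13-2.

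Most members could be translated. In CD4 5339 clonotypes (94.5%), in CD8 8023 (96.5%) and in DN 4909 (93.5%) were in frame without a stop codon, against 91.8%, 94.9% and 90.7% of the clonotypes of other TRBV genes. The 313, 289 and 341 members that were not productive held 438, 345 and 556 reads. Further features of the productive members were tested next, namely the J gene, the D call, the CDR3 length, the residues at CDR3 positions 6 and 7 singly and as a hydrophobic pair, the occurrence with 1 read only and the presence in another library. Residues near the V end may be encoded in part by the V gene, and are then not independent of the V call. Within a library each of 16 V genes was set against all other TRBV genes with Fisher's exact test (two-sided) on distinct clonotypes, and p-values were adjusted by Benjamini-Hochberg over all genes and features. TRBV13-2 differed in 32 of 64 features in CD4, where 43.2% of all tests passed an adjusted p of 0.05. It differed in 35 of 65 in CD8, where 52.9% passed, and in 24 of 64 in DN, where 37.9% passed. The number of calls also depends on how many clonotypes a gene has, so it cannot show how distinct TRBV13-2 was. For CD4, CD8 and DN the median absolute log2 ratio of its features, called or not, stood at 0.225, 0.214 and 0.248. Over all V genes these medians were 0.319, 0.305 and 0.293. That set holds genes with few clonotypes, such as TRBV30 with 196 for DN, whose ratios scatter more. The medians therefore do not show that the differences of TRBV13-2 were smaller. A further condition of a ratio at least 25% above 1, or its inverse, left 14, 17 and 13 of the differing features, and clonotypes of at least 2 reads left 21 in CD4. Between libraries the same test was made within each V gene. TRBV13-2 differed in 24 of 62 features between CD4 and CD8 (29.1% of all tests passed), in 29 of 62 between DN and CD8 (28.4%) and in 34 of 62 between DN and CD4 (36.9%). With clonotypes of at least 2 reads 13 passed between CD4 and CD8 and 16 between DN and CD8, and with the condition on the ratio 12 and 18.

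TRBV13-2 was joined most often to TRBJ2-7, TRBJ2-1 and TRBJ2-5 in all 3 libraries. TRBJ2-7 was used by 19.4% of the productive members in CD4, 22.9% in CD8 and 23.3% in DN, and TRBJ2-1 by 14.2%, 13.9% and 17.3%. TRBJ1-5 was the least used of the 12 J genes in all 3, with 2.90%, 2.75% and 2.69%. The J2 cluster as a whole held 67.3%, 72.2% and 74.1% of the members, and 62.9%, 69.0% and 70.2% of the clonotypes of other TRBV genes.

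**Figure D1:**
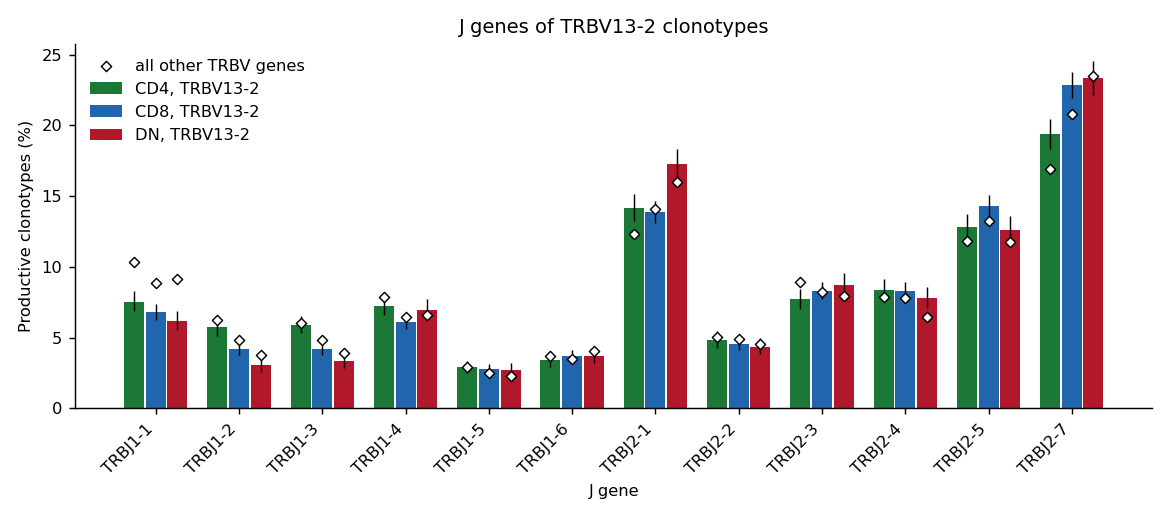
Share of productive TRBV13-2 clonotypes (bars, %, with 95% Wilson intervals) joined to each J gene in the CD4, CD8 and DN libraries, with the share over all other TRBV genes as open diamonds. TRBJ1-1 bars lie below their diamonds in all 3 libraries, and the TRBJ1-2 and TRBJ1-3 bars go down from CD4 to CD8 to DN.

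TRBJ1-1 was the J gene that TRBV13-2 used less than the other V genes in every library. Its share was 7.53% against 10.3% in CD4 (ratio 0.728, 95% interval 0.659 to 0.803, Fisher's exact test, adjusted p = 3.5e-10), 6.81% against 8.84% in CD8 (0.770, 0.708 to 0.838, adjusted p = 1.6e-09) and 6.15% against 9.18% in DN (0.670, 0.598 to 0.751, adjusted p = 4.6e-12). The shortfall was as large against TRBV13-1 and TRBV13-3 alone, with ratios of 0.731, 0.765 and 0.643. In the other direction TRBJ2-7 was used more than by other V genes in CD4 (ratio 1.15) and CD8 (1.10), and its ratio in DN was 0.993. Of 12 J genes 4 passed the test in CD4, 5 in CD8 and 3 in DN, where 34.9%, 48.4% and 31.3% of the J gene tests over all V genes passed.

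Between libraries TRBJ1-2 and TRBJ1-3 were the J genes of TRBV13-2 that differed most. TRBJ1-2 was used by 5.73% of the productive members in CD4 (306 of 5339), 4.2% in CD8 (337 of 8023) and 3.06% in DN (150 of 4909), and TRBJ1-3 by 5.90%, 4.18% and 3.32%. DN stood at 0.533 of CD4 for TRBJ1-2 (0.440 to 0.646, Fisher's exact test, adjusted p = 6.1e-10) and at 0.563 for TRBJ1-3 (0.468 to 0.677, adjusted p = 7.1e-09). TRBJ2-1 was the J gene with the largest surplus in DN, at 1.245 times CD8 (1.15 to 1.35, adjusted p = 3.2e-06 by the exact test) and 1.22 times CD4 (1.11 to 1.33). The other V genes showed the same order, since over all of them together TRBJ1-2 in DN stood at 0.610 of CD4, TRBJ1-3 at 0.643 and TRBJ2-1 at 1.29. Of 16 V genes, TRBV13-2 included, 8 passed the test between DN and CD4 for TRBJ1-2, 10 for TRBJ1-3 and 11 for TRBJ2-1 in this direction.

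TRBV13-2 carried TRBD2 more often than the other V genes in each library. TRBD2 was called in 34.8% of the productive members in CD4, 37.3% in CD8 and 47.3% in DN, against 27.9%, 31.4% and 38.6% for other TRBV genes. The ratios were 1.247 (1.20 to 1.298, Fisher's exact test, adjusted p = 3.6e-23), 1.19 (1.15 to 1.22, adjusted p = 1.2e-24) and 1.23 (1.19 to 1.27, adjusted p = 4.5e-29). TRBD1 was called less often than in other V genes in all 3 libraries, with ratios of 0.890, 0.873 and 0.804. Both sister genes had lower TRBD2 shares, 28.3%, 32.6% and 41.0% for TRBV13-1 and 27.0%, 29.9% and 39.8% for TRBV13-3.

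**Figure D2:**
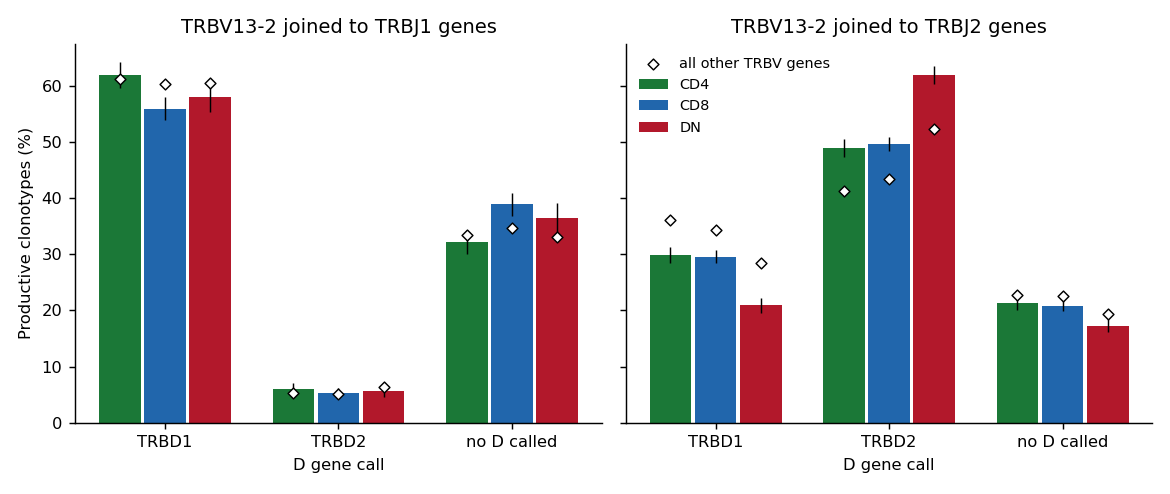
D gene calls of productive TRBV13-2 clonotypes (bars, %, with 95% Wilson intervals) joined to TRBJ1 genes (left) and TRBJ2 genes (right) in each library, with all other TRBV genes as open diamonds. For TRBJ1 the TRBD2 bars lie between 5.25% and 5.95%, while for TRBJ2 the DN bar for TRBD2 reaches 61.9% and the CD4 and CD8 bars 48.8% and 49.6%.

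The surplus of TRBD2 in DN lay in the joins to the J2 cluster. Among members joined to TRBJ2 genes, TRBD2 was called in 48.8% in CD4, 49.6% in CD8 and 61.9% in DN, and TRBD1 in 29.8%, 29.6% and 20.9%. Among those joined to TRBJ1 genes, TRBD2 was called in 5.95%, 5.25% and 5.66%. TRBD2 lies beyond the TRBJ1 genes and does not reach them by the usual deletional joining, which sets a limit on how far a D call can be trusted. Over all J genes, DN stood at 1.27 times CD8 in TRBD2 (1.22 to 1.32, Fisher's exact test, adjusted p = 3.5e-27) and at 1.36 times CD4 (1.296 to 1.42, adjusted p = 1.2e-35). For other TRBV genes together these ratios were 1.23 and 1.38, and 11 and 12 of 16 V genes passed the test.

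Among TRBV13-2 members called TRBD2, the letters GACTGG stood in the Asp-Trp frame at different shares in the 3 libraries, the highest in DN. TRBD2 can be read in each frame, giving the residues Asp-Trp-Gly, Gly-Leu-Gly or Gly-Thr-Gly, and the letters GACTGG were taken to mark the frame. They were present in 831 of the 1858 productive TRBD2 members in CD4, 1419 of 2990 in CD8 and 1235 of 2321 in DN. Of these, 41.0% (37.7 to 44.4%) read Asp-Trp in CD4, 51.4% (48.8 to 54.0%) in CD8 and 69.1% (66.4 to 71.6%) in DN. By reads the shares were 60.8%, 62.1% and 80.7%. The same order held over other TRBV genes at a lower level, with 38.3%, 43.9% and 62.1% of their clonotypes. The V consensus of TRBV13-2 ends in GA, and this GA followed by CTGG also spells GACTGG, always in the Asp-Trp frame. Members of this kind were not counted apart, and their part in the level against other TRBV genes was not tested. The reading frame was looked at after the residues below had been seen, and no test was applied to it.

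CDR3s of TRBV13-2 were longest in DN. The mean length of the productive members was 14.05 ± 1.48 residues in CD4 (SD over 5339 clonotypes), 13.9995 ± 1.59 in CD8 (8023) and 14.36 ± 1.52 in DN (4909), against 13.90, 13.91 and 14.19 for other TRBV genes. The commonest length was 14 residues in CD4 (27.8%) and CD8 (28.1%) and 15 residues in DN (31.1%).

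**Figure D3:**
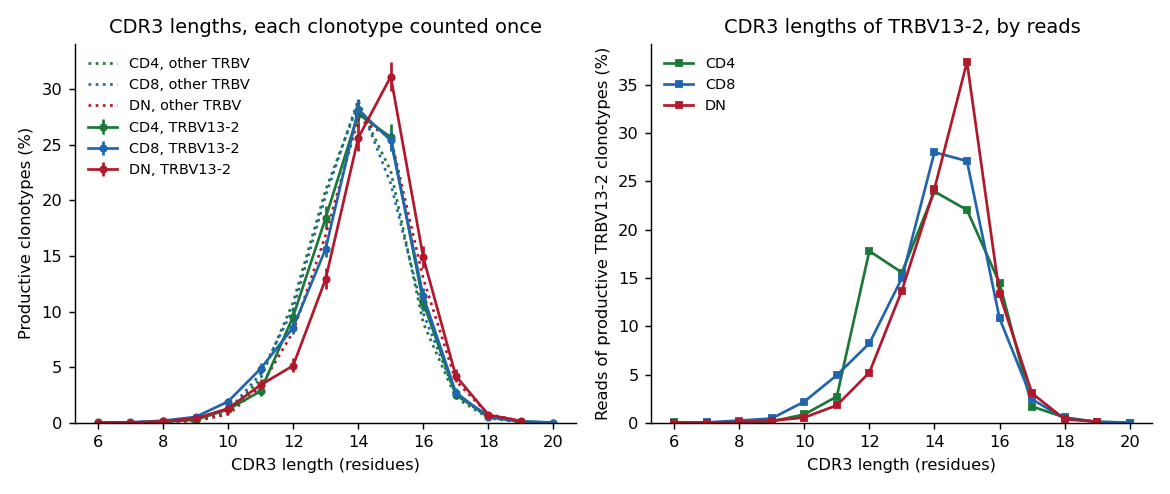
CDR3 lengths (residues) of productive TRBV13-2 clonotypes in each library, as percent of clonotypes with 95% Wilson intervals beside the other TRBV genes as dotted lines (left), and as percent of reads (right). The DN curve peaks at 15 residues in both panels, and by reads the CD4 curve has an extra peak at 12 residues, with 17.8% of the reads.

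All 7 length classes differed between DN and CD8, where 45.9% of the length tests over 16 V genes passed. Members of 12 residues made up 5.13% in DN and 8.56% in CD8 (ratio 0.599, 0.521 to 0.690, Fisher's exact test, adjusted p = 3.5e-12). At the other end, those of 17 residues or more made up 5.09% and 3.37% (ratio 1.51, 1.28 to 1.79, adjusted p = 2.2e-05 by the exact test). Over the other V genes together these ratios were 0.7996 and 1.51. Between DN and CD4 6 of the 7 classes passed, the exception being 11 residues or fewer, with 5.24% and 4.46% (adjusted p = 0.15, exact test), and 45.05% of the length tests over all V genes passed there. These shortest CDR3s set CD8 apart, where they made up 7.53% and CD4 stood at 0.592 of that share (0.512 to 0.685, adjusted p = 1.5e-11, exact test). Over the other V genes together this ratio of CD4 to CD8 was 0.887. The peak at 12 residues by reads in CD4 holds the largest clonotype there, which is 12 residues long and had 1484 reads.

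CDR3 length also varied with the D call within each library. In DN the members with TRBD2 and a TRBJ2 gene had a mean length of 14.9 residues, those with TRBD1 and a TRBJ2 gene 14.1 and those with no D called 13.1. In CD8 the same classes had means of 14.7, 13.95 and 12.7, so the DN mean was the higher in each class, a difference that was not tested. The stretch between the V and J consensus bases can hold the D remnant, the added bases and V or J bases beyond the consensus ends. Its mean was 11.9 ± 4.36 bases in CD4, 11.6 ± 4.37 in CD8 and 12.8 ± 4.52 in DN (SD over the same clonotypes). The stretch matching V was of 12.9, 13.2 and 13.01 bases and that matching J of 17.3, 17.2 and 17.3 bases.

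Alanine at CDR3 position 6 distinguished TRBV13-2 from the other V genes in each library. The V consensus stops where too few sequences shared a base, so its end need not be the end of the V gene. Position 6 lies 2 residues beyond the CASG stretch, past the 14 bases of this consensus, but not necessarily past the V gene. Ala there was held by 20.1% of the productive members in CD4 against 5.55% of other TRBV clonotypes (ratio 3.62, 3.38 to 3.88, Fisher's exact test, adjusted p = 3.9e-234), by 21.3% against 5.66% in CD8 (3.75, 3.56 to 3.95, adjusted p = 5.2e-298) and by 19.1% against 6.70% in DN (2.85, 2.66 to 3.06, adjusted p = 9.3e-149). Against TRBV13-1 and TRBV13-3 alone the ratios were 1.59, 1.77 and 1.45 and passed the test. No germline sequence was used, so how far the V gene itself encodes this Ala was not tested. Where the V gene does so, the surplus restates the V gene call that chose the members. Asp at position 6 was rarer than in other V genes in all 3 libraries, with ratios of 0.370, 0.533 and 0.606, but against the sister genes alone the call held in CD4 only (0.613, against 0.947 and 0.963 in CD8 and DN). Trp at position 6, an aromatic residue, was commoner than in other V genes in CD4 (4.31% against 3.22%, ratio 1.34, 1.16 to 1.54, adjusted p = 0.00027, exact test), in CD8 (6.29% against 4.05%, 1.55, 1.42 to 1.70, adjusted p = 6.9e-18) and in DN (9.70% against 6.73%, 1.44, 1.31 to 1.58, adjusted p = 5.6e-12). Set against the sister genes alone, the ratio passed in CD8 (1.24) and not in DN (1.12). Glu at position 6 was rarer than in other V genes in all 3 libraries (0.336, 0.701 and 0.623), yet against the sister genes alone its ratios were 0.752, 1.09 and 1.17, and none passed.

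Trp and Asp at positions 6 and 7 of TRBV13-2 were commoner in DN than in the other libraries. Trp at position 7 was held by 5.84% of the productive members in CD4, 7.25% in CD8 and 13.8% in DN. DN stood at 1.90 times CD8 (1.71 to 2.11, Fisher's exact test, adjusted p = 1.3e-30) and at 2.35 times CD4 (2.07 to 2.68, adjusted p = 3.9e-40). Trp at position 6 was held by 4.31%, 6.29% and 9.70%, which put DN at 1.54 times CD8 (1.37 to 1.74, adjusted p = 7.1e-11, exact test) and at 2.25 times CD4 (1.93 to 2.62, adjusted p = 2.1e-25). Asp at position 7 was held by 6.39%, 8.03% and 12.9%, or 1.61 times CD8 (1.45 to 1.79) and 2.03 times CD4 (1.79 to 2.30). Asp at position 6 was held by 5.24%, 8.10% and 10.96%, or 1.35 times CD8 (1.21 to 1.51) and 2.09 times CD4 (1.82 to 2.40, adjusted p = 8.4e-25, exact test). These are the residues of the Asp-Trp frame of TRBD2. The other V genes moved alike, since over all of them together Trp at position 7 in DN stood at 1.72 times CD8 and 2.30 times CD4, and Asp there at 1.39 and 1.77 times. Of 16 V genes, 11 passed for Trp at position 7 between DN and CD8 and 13 between DN and CD4. Tyr at position 6 was held by 1.20% in DN against 0.760% in CD8 (ratio 1.58, 1.11 to 2.26, adjusted p = 0.049, exact test), while its ratio to the 0.862% of CD4 was 1.39 and did not pass. Lys at position 6, a basic residue, went the other way and was commonest in CD4, with 1.20% against 0.523% in CD8 (ratio 2.29, 1.55 to 3.37, adjusted p = 0.00023, exact test) and 0.631% in DN. Over the other V genes together Lys at position 6 had the same leader, with 0.918% in CD4, 0.611% in CD8 and 0.565% in DN. Gly at position 7 was the commonest residue there in each library and was held by 39.4% in CD4, 35.9% in CD8 and 30.0% in DN. The other V genes showed the same order, with 36.0%, 32.2% and 29.5%.

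Hydrophobic residues at positions 6 and 7 together, a feature linked in earlier work with self-reactive receptors, were more frequent in DN. They were found in 82 of 5339 productive members in CD4 (1.54%), 124 of 8023 in CD8 (1.55%) and 123 of 4909 in DN (2.51%). DN stood at 1.62 times CD8 (1.27 to 2.08, Fisher's exact test, adjusted p = 0.0011) and at 1.63 times CD4 (1.24 to 2.15, adjusted p = 0.0024), and the ratio of CD4 to CD8 was 0.994 (0.753 to 1.31). Here too the other V genes moved alike, with 1.05%, 1.19% and 1.88%, and 7 of the 15 V genes that could be tested passed between DN and CD8. The residues counted as hydrophobic were Phe, Ile, Leu, Met, Val, Trp and Tyr. This feature therefore overlaps with the results for Trp and Tyr above.

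Clone sizes of TRBV13-2 differed widely between the libraries. A clonotype had a mean of 3.46 reads in CD4, of 1.78 in CD8 and of 4.32 in DN, and 61.3%, 69.9% and 55.7% of the clonotypes were seen with 1 read. The 10 largest held 22.8% of the reads of the gene in CD4 (22.2 to 23.4%), 7.31% in CD8 (6.90 to 7.74%) and 13.4% in DN (12.9 to 13.8%). To reach 50% of its reads took 252 of the CD4 clonotypes (4.46%), 1709 of the CD8 clonotypes (20.6%) and 217 of the DN clonotypes (4.13%), against 7.55%, 18.9% and 2.92% of the clonotypes of other TRBV genes. Thinned to the 133667 reads of the smallest library, 5652 clonotypes would be seen in CD4, 7629 in CD8 and 4230 in DN. The order by number of clonotypes was therefore the same at equal read depth. Thinning reads does not allow for differences in the number of molecules captured, which were not tested.

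**Figure D4:**
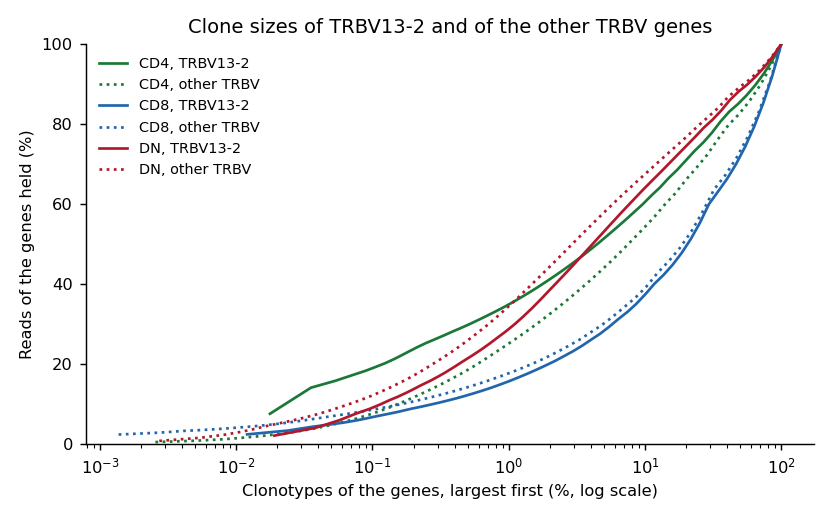
Reads held (%) by the largest clonotypes, counted from the largest down as a percent of all clonotypes (log scale), for TRBV13-2 (solid) and the other TRBV genes (dotted) in each library. The solid CD4 curve starts at 7.59% with its largest clonotype and lies above the other curves at the left end of its range, and the CD8 curves lie lowest on the right.

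In CD4 a pair of clones stood far above the rest. The TRBJ2-5 clonotype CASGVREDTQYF held 1484 reads there, or 1.11% of all TCR beta reads, and was the largest clonotype of the whole library, with 21 reads in CD8 and 3 in DN. The second of the library was also a TRBV13-2 clonotype, of 16 residues with TRBJ2-1 and TRBD2, which had lost the Gly codon of the V gene and began CASR. Its reads were 1275 for CD4, 5 for CD8 and 7 for DN. The next of the gene, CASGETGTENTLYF, had 331 CD4 reads, 1 CD8 read and 2 DN reads, and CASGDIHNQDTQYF had 212, 2 and 0. These clones had few or no reads in the other libraries. The fourth of the gene in CD4 differed, since this clonotype of 15 residues with TRBJ1-5 had 276 reads there, 20 in CD8 and 154 in DN. Once the largest clonotype was left out, the 10 largest that remained held 17.2% of the CD4 reads of the gene.

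In CD8 the largest TRBV13-2 clonotype was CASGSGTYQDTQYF with 360 reads, the fourth of that library, which had 1 read in CD4 and 4 in DN. The second and the third had 142 and 139 reads in CD8, with 4 and 1 in CD4 and 3 and 2 in DN, and the fourth had 82 reads in CD8 and none in the others, which allows shares of up to 0.00224% in CD4 and 0.00154% in DN. The TRBV13-2 clones with the most reads in DN were present in all 3 libraries. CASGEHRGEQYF, the largest of the gene in DN, had 481 reads there, 66 in CD8 and 16 in CD4. The second of DN had 439, 66 and 17 reads in the same order, the third 433, 62 and 177, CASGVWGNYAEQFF 383, 46 and 19, and the fifth, with TRBJ2-7 and 16 residues, 262, 38 and 8. The third of DN was the only clonotype among the 10 largest of the gene in all 3 libraries, with rank 7 in CD4, rank 8 in CD8 and rank 3 in DN. No TRBV13-2 clonotype was among the 10 largest of the whole DN library, while 3 were in CD4 and 1 in CD8.

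Both the second and the third TRBV13-2 clonotype of DN began with CASGDWDWG, and clonotypes with this start were counted in all libraries, a choice made after their values were seen. There were 16 in CD4, 30 in CD8 and 57 in DN, or 0.2997%, 0.374% and 1.16% of the productive members. They held 244 of the productive reads of the gene in CD4 (1.28%), 285 in CD8 (1.97%) and 1913 in DN (8.65%), and 5 of them had at least 100 reads in DN. In each library all were called TRBD2. Of the 57 in DN, 23 were found in CD8 and 10 in CD4. The residues DWDWG also stood inside CDR3s of other TRBV genes, in 0.0250%, 0.0289% and 0.126% of their productive clonotypes. The start CASGDAGG was rarest in DN, with 2.57% of the productive members in CD4 (137), 2.39% of those in CD8 (192) and 1.14% of those in DN (56). By productive reads its shares were 2.23%, 3.68% and 0.606%, so that CD8 and not CD4 stood highest. The start CASGDWGG was counted too, with 0.506%, 1.46% and 1.59% of the productive members of CD4, CD8 and DN. By reads its shares were 0.309%, 1.74% and 1.19%, the highest again in CD8. The next sequences show how the first start was built by different bases, with the same TTGGGACTGGGG or nearly the same stretch in the capitals.
TRBJ2-5, 433 reads in DN: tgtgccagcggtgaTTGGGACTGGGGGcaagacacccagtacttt
TRBJ2-5, 184 reads in DN: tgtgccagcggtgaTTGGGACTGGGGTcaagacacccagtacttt
TRBJ2-5, 125 reads in DN: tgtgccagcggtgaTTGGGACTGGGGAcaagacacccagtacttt
TRBJ2-5, 66 reads in DN: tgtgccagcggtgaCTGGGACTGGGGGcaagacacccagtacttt
TRBJ2-7, 239 reads in DN: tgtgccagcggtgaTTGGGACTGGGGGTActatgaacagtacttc
The first 3 differ in the last capital alone and encode the same residues. In CD8 these 5 clonotypes had 62, 14, 13, 16 and 42 reads, and in CD4 177, 0, 24, 0 and 8.

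Several nucleotide sequences for the same CDR3 were common among the members. Of 14364 productive amino acid CDR3s over the 3 libraries, 1513 (10.5%) were encoded by more than 1 nucleotide sequence, and these were shorter, with a mean of 13.8 residues against 14.2. Within CD4 alone the share was 6.12%, within CD8 8.16% and within DN 6.63%, against 5.19%, 6.73% and 4.88% for other TRBV genes. Sequences 1 mismatch apart were not merged here, and the part of PCR or sequencing errors in these counts was not tested. The CDR3 with the most was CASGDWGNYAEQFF, with 11 nucleotide sequences, followed by several with 10, among them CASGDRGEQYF and the TRBJ2-5 CDR3 beginning CASGDWDWG. They differed in abundance. Over all its sequences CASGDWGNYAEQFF had 6 CD4 reads, 11 CD8 reads and 20 DN reads, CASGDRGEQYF had 2, 30 and 5 in that order, and the third had 201, 115 and 871. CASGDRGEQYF is shown, with reads summed over the 3 libraries, because its encodings differ in where the V stretch ends.
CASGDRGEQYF, 22 reads: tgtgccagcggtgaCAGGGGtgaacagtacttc
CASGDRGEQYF, 4 reads: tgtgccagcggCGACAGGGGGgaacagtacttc
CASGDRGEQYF, 3 reads: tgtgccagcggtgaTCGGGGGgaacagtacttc
In the first the V stretch supplied the start of the Asp codon and the capitals the rest, whereas in the second the V stretch ended before that codon.

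DN and CD8 T cells shared the most TRBV13-2 clonotypes. The same nucleotide CDR3 with the same V and J genes was found in both for 952 clonotypes, which made up 18.1% of those in DN and 11.5% of those in CD8. CD4 and CD8 shared 544 (9.62% of CD4, 6.54% of CD8), and DN and CD4 shared 490 (9.33% of DN, 8.67% of CD4). These counts do not allow for the different numbers of clonotypes in the libraries. Relative to the possible pairs of clonotypes, DN and CD8 still led, but DN and CD4 then came before CD4 and CD8. The proportion was 21.8 to 16.5 to 11.6 in that order. By reads, the clonotypes shared with CD8 held 63.1% of the TRBV13-2 reads in DN and those shared with CD4 held 45.2%. With CDR3s matched by amino acids instead, the pair CD4 and CD8 shared 16.8% of CD4 and 11.9% of CD8, and with at least 2 reads in both libraries DN covered 17.4% of CD8. Other TRBV genes had similar shares for DN, with 18.6% of their DN clonotypes found in CD8 and 8.89% in CD4. Among productive clonotypes in CD8, TRBV13-2 was found in the other libraries more often than other V genes, in CD4 for 6.73% against 4.71% (ratio 1.43, 1.31 to 1.56, Fisher's exact test, adjusted p = 2.6e-13) and in DN for 11.7% against 9.46% (1.24, 1.16 to 1.32, adjusted p = 2.5e-09). The gene made up more of the clonotypes in CD4 (12.6%) and DN (12.5%) than in CD8 (10.2%), which offers its CD8 clonotypes more possible matches. The test did not allow for this. In DN the ratios were 0.971 (0.913 to 1.03) for sharing with CD8 and 1.05 (0.956 to 1.15) for CD4, and neither passed. In CD4 the ratio for CD8 was 1.12 (1.02 to 1.22, adjusted p = 0.036, exact test) and that for DN was 1.04.

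**Figure D5:**
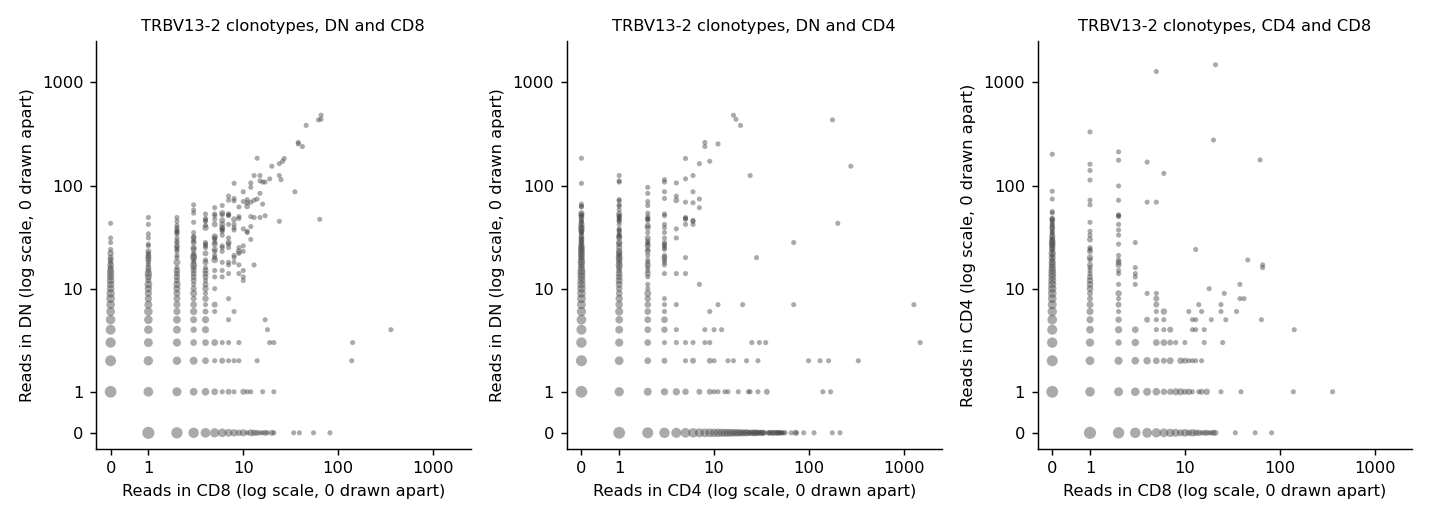
Reads of each TRBV13-2 clonotype in pairs of libraries (log scales, with 0 drawn apart), 1 point for each pair of read numbers and larger points for more clonotypes. In the DN and CD8 panel the large DN clonotypes lie along a band, with CD8 reads rising with DN reads, while in the CD4 and CD8 panel the 13 clonotypes with at least 100 reads in CD4 have 0 to 21 reads in CD8, apart from 1 with 62.

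Finding a clonotype in another library went with its size. Of the DN members with 1 read 7.42% were found in CD8, of those with 2 to 9 reads 21.9%, of those with 10 to 99 reads 80.7%, and of those with at least 100 reads all 22. In CD4 the same classes were found for 3.97%, 9.89%, 45.6% and 20 of 22. The 20 largest DN clonotypes were all present in CD8, at a median of 19.0% of their share in DN (9.80 to 28.2%), and 19 of them were in CD4, where the median over the 20 was 5.25%. Of the 20 largest in CD8, 16 were in DN, and 12 of these had a higher share there than in CD8. By contrast the 20 largest of CD4 had a median share in CD8 of 1.12% of their own, and 13 were found in DN. Whether cells of the same clone lay in both gates or reads of 1 sample reached another library was not tested.

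The clonotypes found in all 3 libraries were few and large. They numbered 272 of the 17500 distinct TRBV13-2 clonotypes (1.55%), and held 26.6% of the reads of the gene in CD4, 16.1% in CD8 and 41.4% in DN. Of the other TRBV genes 1.22% of the clonotypes were in all 3 libraries, with 13.3%, 15.1% and 46.6% of the reads. The share in CD4 includes the clones of 1484 and 1275 reads, which had 3 and 7 reads in DN. Those found in DN alone had a mean length of 14.4 residues, 47.7% TRBD2 and a mean of 13.1 bases between the V and J stretches. Those found in DN and CD8 had 14.3 residues, 46.6% TRBD2 and 11.9 bases, and those in CD4 and CD8 but not DN had 13.4 residues, 32.8% TRBD2 and 9.52 bases. The clonotypes that DN shared had a TRBD2 share close to that of those found in DN alone, and fewer bases between the V and J stretches.

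Invariant NKT cells, which pair Vβ8 chains with a TRAV11 to TRAJ18 alpha chain, could not be assessed from the beta chains. CD4, CD8 and DN held 82, 100 and 78 alpha chain clonotypes, which had 101, 101 and 85 reads. A TRAV11D to TRAJ18 clonotype was seen with 1 read in DN and in no other library, where 0 of 101 reads allows a share of up to 2.97%. No TRAV1 to TRAJ33 clonotype, the alpha chain of MAIT cells, was seen. The cytometry of spleens of this strain in the study left out cells with the NK receptor Ly49b, and whether the sort for these libraries did so is not given in the sources used here. The part of NKT cells in the TRBV13-2 reads was not tested.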

How the data were processed

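The authors sorted the 3 subsets, made libraries with the Takara SMARTer Mouse TCRα/β kit, aligned the reads and assembled and exported clonotypes with MiXCR, whose version and settings are not given in the sources used here. The deposited tables give each clonotype its count of reads, not normalized, and its fraction of the library, which equalled the count over the total of the table. They name 1 best V, D and J gene per clonotype. TRBV13-2 clonotypes were taken from these calls. The members, gene lists and tests were chosen with earlier results of these data known.

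CD4, CD8 and DN had 133667, 150874 and 194290 TCR beta reads, so that 3 reads make 0.00224%, 0.00199% and 0.00154%. Clonotypes without a stop codon or frame shift were called productive. Fisher's exact tests used V genes with at least 100 productive clonotypes in each library and features with at least 10 clonotypes. Residues were read in CDR3s of 11 to 18 residues. Clonotypes were named if among the 5 largest of the gene in a library, among its 10 largest in more than 1, or if their CDR3 was among the 3 with the most encodings. V genes were named as sister genes or the 3 nearest in read pattern or J use, and up to 5 lengths or residues per comparison by the largest ratio either way, with a few others beside them. Ratios of shares have 95% intervals from the log scale. The tests were tried on simulated data. The RefSeq list served for names and order only, and no coordinates were used. Python 3.11.15, SciPy 1.17.1 and pandas 2.3.3 were used.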

Additional observations from a re-analysis of the deposited data

How the results depend on the processing

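With at least 2 reads per clonotype, the read share of TRBV13-2 gave ratios of 1.604 (CD4 to CD8), 1.22 (DN to CD8) and 0.761 (DN to CD4), and the clonotype share 1.29 and 1.28 to CD8. The same filter, which leaves fewer clonotypes to test, lowered the number of differing features to 21 in CD4, 13 between CD4 and CD8 and 16 between DN and CD8, and gave 27.7%, 12.03% and 15.3% for the 10 largest in CD4, CD8 and DN and a mean length of 13.92 in CD8. With 2 reads in both libraries, CD8 covered 8.10% of CD4, DN 17.4% of CD8, CD4 7.48% of DN and DN 7.96% of CD4. Restricting every V gene to its commonest first 12 bases gave read ratios of 1.42 (CD4 to CD8) and 0.825 (DN to CD4), and leaving out the 10 largest clonotypes gave 1.29, 1.23 and 0.958. Without the largest clonotype the 10 largest held 17.2%, 5.29% and 12.2%. A ratio at least 25% above 1, or its inverse, as a further condition left 14, 17 and 13 features within CD4, CD8 and DN, 12 between CD4 and CD8 and 18 between DN and CD8. With amino acid CDR3s, sharing was 16.8% of CD4 and 11.9% of CD8 for that pair, 24.4% of DN and 15.9% of CD8, and 13.5% of DN and 12.4% of CD4, and the mean length in CD8 was 14.07. Weighted by reads the mean length was 13.95 in CD4 and 14.42 in DN. Glu at position 6 turned to 1.09 in CD8 and 1.17 in DN against the sister genes alone, and the cause was not tested. Merging of sequences 1 mismatch apart moved none of these summaries and the call of 1 of 120 single features. The equal-depth clonotype ratios, 1.23, 1.23 and 0.995, were added after seeing the data. No paired analysis was possible because each subset had 1 library. At these depths most clonotypes were seen with 1 read, so absence from a library is not shown by absence from its table.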
